A study of Drosophila melanogaster with 12 samples.

Results

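The core genes of the circadian clock were examined for RNA polymerase II (Pol II) in Drosophila Kc167 cells. The members were listed by gene name, with no measured value in the rule: vri, Pdp1, Clk, cyc, per, tim, cry, cwo and dco, which are 9 of the 13968 protein-coding genes, and of the 18277 genes of all kinds, in the Ensembl annotation of the dm6 genome. All 9 were found, and together they have 18 annotated transcription start sites (starts). The circadian clock of Drosophila is a transcriptional feedback loop. The basic helix-loop-helix proteins CLK and CYC bind E-boxes and activate per, tim, vri, Pdp1 and cwo. PER and TIM then enter the nucleus and repress CLK and CYC, while VRI represses and PDP1 activates Clk. The loop is best known in pacemaker neurons and photoreceptors of the adult fly.

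Kc167 is a female line of embryonic origin, described in the study as hemocytes (blood cells), and the labels give neither a light regime nor a time of day. Chromatin was immunoprecipitated with the antibody 8WG16, which was raised to the hypophosphorylated C-terminal repeats of Pol II. All cells had been transfected by nucleofection and were collected 3 days later. Mock cells received no RNA, siAGO2 cells received 100 pmol of a small interfering RNA against AGO2, a core protein of RNA interference, and dsLaminB cells received 2 µg of a long double-stranded RNA against LaminB, a protein of the nuclear lamina encoded by Lam. The authors checked the knockdowns by Western blot. Depletion of the target therefore cannot be told apart from an effect of the transfected RNA itself, since the mock cells received none. Each treatment had 2 immunoprecipitated libraries, and nothing in the labels says whether these came from separate cultures. The peak list of each library, called by the authors for each library separately, was the measurement.

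The 6 lists differed in length. They held 5965 and 5601 peaks in mock replicates 1 and 2, 4089 and 5381 in siAGO2 replicates 1 and 2, and 2531 and 4124 in dsLaminB replicates 1 and 2. The longest list also had the widest peaks and the shortest list the narrowest, with a median width of 540 bp in mock replicate 1 and of 300 bp in dsLaminB replicate 1. The read depth of the libraries is not in the lists, so its part in these differences was not tested. dsLaminB replicate 1, the shortest list, stands apart, and dsLaminB differences are given with and without it. A peak was counted at a start when it lay within 500 bp of it. The start of AGO2 had a peak in 6 of 6 libraries and that of Lam in 5 of 6, all but dsLaminB replicate 1, and Pol II at a start does not measure a knockdown. Of 9 hemocyte markers, 7 had a start peak in every library, eater had one in 3 and NimC1 in none. Of 5 neuron and glia markers, elav had one in every library, repo in mock replicate 1 alone, and 3 in none. Of 3 photoreceptor markers, norpA had one in 5 libraries, all but dsLaminB replicate 1, and ninaE and Rh2 had none. Among all protein-coding genes, 19.7% had a start peak in every library and 49.2% in none.

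The promoter sequences at 4 of the starts are shown first, because they represent the different outcomes found below. The third start of vri and the start of cwo had a peak in every library, the first start of Pdp1 had one in mock cells only, and the third start of tim had none. Each runs 5′ to 3′ on the strand of the gene from 250 bases upstream to the first 30 transcribed bases, was read from the RefSeq Release 6 genome (dm6), and is written in lower case. Capitals mark the E-box CACGTG, the GAGA element GAGAG in either orientation, and the initiator TCAGT where it lies within 10 bases of the start. The positions are chr2L:5305400-5305679 (plus strand) for vri, chr3R:10388008-10388287 (plus strand) for cwo, chr3L:7867340-7867619 (minus strand) for Pdp1 and chr2L:3507189-3507468 (minus strand) for tim.
vri start 3: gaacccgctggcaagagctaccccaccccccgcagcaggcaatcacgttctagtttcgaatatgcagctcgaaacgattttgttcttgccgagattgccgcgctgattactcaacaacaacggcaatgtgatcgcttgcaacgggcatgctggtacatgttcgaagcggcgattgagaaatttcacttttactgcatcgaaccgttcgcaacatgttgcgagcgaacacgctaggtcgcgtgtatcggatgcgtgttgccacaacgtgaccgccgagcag
cwo start 1: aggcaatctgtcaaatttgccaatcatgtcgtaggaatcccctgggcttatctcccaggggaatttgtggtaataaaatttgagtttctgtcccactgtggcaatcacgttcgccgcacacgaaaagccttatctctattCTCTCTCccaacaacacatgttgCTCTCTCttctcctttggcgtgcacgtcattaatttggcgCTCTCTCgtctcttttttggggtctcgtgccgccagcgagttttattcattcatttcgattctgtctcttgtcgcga
Pdp1 start 1: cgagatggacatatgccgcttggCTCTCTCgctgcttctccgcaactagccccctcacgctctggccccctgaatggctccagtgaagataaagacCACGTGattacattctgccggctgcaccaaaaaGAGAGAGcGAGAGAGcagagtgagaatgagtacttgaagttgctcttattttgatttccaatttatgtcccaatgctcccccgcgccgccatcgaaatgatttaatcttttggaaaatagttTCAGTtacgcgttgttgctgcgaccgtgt
tim start 3: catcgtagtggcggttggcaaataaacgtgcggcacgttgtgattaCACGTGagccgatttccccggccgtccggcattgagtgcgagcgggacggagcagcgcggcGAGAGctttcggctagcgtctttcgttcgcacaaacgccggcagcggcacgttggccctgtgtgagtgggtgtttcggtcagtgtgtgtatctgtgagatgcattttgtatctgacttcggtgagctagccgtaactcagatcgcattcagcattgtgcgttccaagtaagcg

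The vri window has no capitals, because none of the searched motifs lies in it. The nearest E-box before that start begins at position −974, counted from the start. The cwo window has 3 runs of CTCTCTC, each holding 2 overlapping GAGA elements on the opposite strand, and its nearest E-box begins at −934. The Pdp1 window holds an E-box at −154, 6 overlapping GAGA matches and an initiator. The tim window holds an E-box at −204 and a GAGA element at −143. Over all 18 starts, 2 had an E-box in the window from 250 bases before to 50 bases after the start, where 4.01% of protein-coding starts do, and these 2 are the first start of Pdp1 and the third of tim. Extended to 1000 bases upstream, the E-box was found before 7 of 18 clock starts and before 13.0% of all starts. The GAGA element was found at 10 of 18 in the shorter window, against 33.1% of all. The box bound by VRI and PDP1, searched as TTATGTAA and TTACGTAA in both orientations, was found in the longer window at 3 of 18 starts, against 9.36% of all. They were the first and the third start of Pdp1 and the first start of Clk. A TATAAA was found in the shorter window at 5 of 18, against 29.4%. Of the 7 starts with an E-box in the longer window, 5 had a peak in at least 1 library and 2 had none. Of the 10 with a GAGA element, 6 had a peak and 4 had none, and of the 5 with a TATAAA, 1 had a peak and 4 had none. Of all 18 clock starts, 9 had a peak in no library, as did 52.4% of all starts of protein-coding genes. That share is over 17794 starts, joined within 300 bp in a gene. The motif shares are over distinct start positions without joining, 19276 in the shorter window and 19275 in the longer. No test was made of motif against peak.

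The clock genes fell evenly into 3 classes. vri, Pdp1 and cwo had a peak at 1 or more starts in every library, dco, cyc and per had one in some libraries, and Clk, tim and cry had none, neither at a start nor anywhere inside the gene. The first class held 3 of 9 genes where 19.7% of all protein-coding genes have a start peak in all 6 libraries, and the last held 3 of 9 where 49.2% have none. By start, 3 of 18 clock starts had a peak in all 6 libraries (17.8% of all starts) and 9 of 18 in none (52.4% of all starts). With 9 genes and 18 starts, these counts were not read as a difference from protein-coding genes at large.

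**Figure D1:**
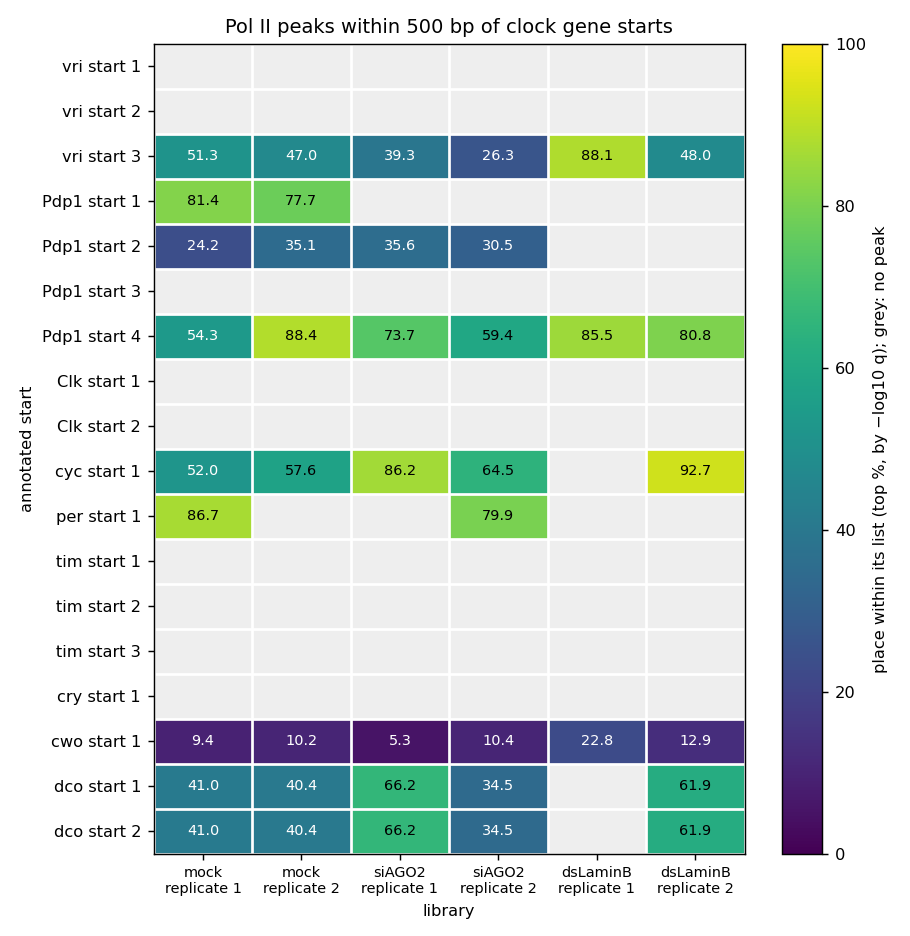
Place of the Pol II peak at each of the 18 annotated starts of the 9 clock genes (rows) in each of the 6 libraries (columns). The number in a cell is the rank of the peak by −log10 q as a percent of the list, so that a low number is a strong peak, and an empty cell has no peak within 500 bp of the start. The cwo row holds the strongest places, from 5.33 to 22.8 percent, and the rows of Clk, tim and cry are empty.

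The repressors of the loop were vri, cwo, per and tim. vri encodes a basic leucine zipper repressor of Clk and spans chr2L:5288944-5311223 on the plus strand (FBgn0016076, 22280 bp). It has 3 starts, and peaks were found only at the third, which lies 16706 bp downstream of the first and begins 3 of its 5 transcripts (vri-RA, vri-RD and vri-RF). The first start (vri-RE) and the second (vri-RC, 10703 bp downstream) had no peak in any of the 6 libraries. The nearest peak lay 9.57 to 16.8 kb from the first start and 5.9 to 6.1 kb from the second. Pol II at a subset of the starts was common. Among the 2514 protein-coding genes with 2 or more starts, the share with peaks at only some of them, of those with any, was 58.3% in mock replicate 1 and 79.8% in dsLaminB replicate 1, and lay between these in the other 4 lists.

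The peak at the third start of vri was 369 and 367 bp wide in mock replicates 1 and 2, 320 and 327 bp in siAGO2 replicates 1 and 2, and 153 and 269 bp in dsLaminB replicates 1 and 2. The 3 treatments therefore did not overlap in width, with mock the widest. In mock replicate 1 the peak ran from 100 bp before the start to 268 bp after it (chr2L:5305550-5305918), and in dsLaminB replicate 1 it began 92 bp after the start. A stretch of 126 bp, from 92 to 217 bp downstream (chr2L:5305742-5305867), was under the peak in all 6 libraries and lies wholly in the first exon of 517 bp. The median width differed between the lists, so the width was also set against its own list's median. On that scale it was 0.683 and 0.763 in mock cells, 0.886 and 0.705 under siAGO2, and 0.51 and 0.766 under dsLaminB, and the 3 treatments overlapped.

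**Figure D2:**
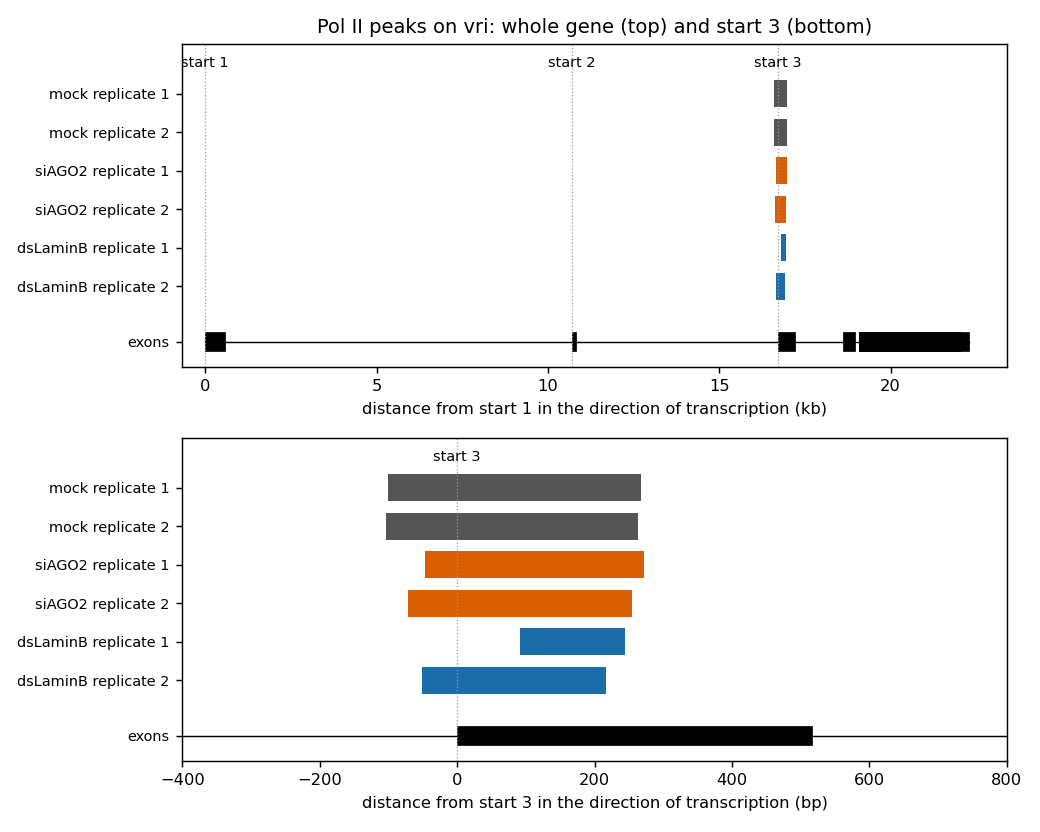
Pol II peaks (bars) on vri in the 6 libraries (rows, by treatment). The whole gene is plotted against the distance in kb from the first annotated start. The enlarged panel gives the distance in bp from the third start. Every bar lies at the third start, and the bars narrow from 369 bp in mock replicate 1 to 153 bp in dsLaminB replicate 1.

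The strength of the vri peak was read as its place in its own list, the rank by −log10 q as a percent of the list length, because q values from separate calls share no scale. The place was 51.3 and 47.0 percent in mock cells, 39.3 and 26.3 percent under siAGO2, and 88.1 and 48.0 percent under dsLaminB. The peak thus stood higher in both siAGO2 lists than in both mock lists, while the dsLaminB lists overlapped mock. The underlying −log10 q was 15.0 and 13.6 in mock cells, 12.4 and 22.9 under siAGO2, and 2.37 and 8.78 under dsLaminB. vri was the only 1 of the 5 clock genes with a peak in all 4 libraries whose place was higher in both siAGO2 than in both mock lists, where 4.92% of 4528 genes were. cyc was the only 1 of the 5 at a lower place in both, where 41.6% were. Ranked by fold enrichment, the place of vri was again higher under siAGO2 (28.8 and 19.6 percent) than in mock (35.4 and 29.8 percent). By that ranking it was lower in both dsLaminB lists (75.0 and 39.2 percent) than in both mock lists. The overlap of dsLaminB with mock thus depended on the ranking. By −log10 q, 0 of the 3 clock genes with a peak in all 4 lists stood higher in both dsLaminB than in both mock lists (5.1% of 2567 genes). At a lower place in both stood 1 of 3, cwo (69.2%).

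Among the 2544 protein-coding genes with a peak in all 6 libraries, the 3 whose places over the 6 lists were most like those of vri were GstD5, SF1 and Hip14. Their mean absolute difference from vri was 2.88, 5.32 and 5.46 percentage points.

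cwo encodes a basic helix-loop-helix-Orange protein that represses at E-boxes (FBgn0259938, chr3R:10388258-10400752, plus strand). It had the strongest peak of the 9 genes in each of the 6 lists. The place of its peak was 9.39 and 10.2 percent in mock cells, 5.33 and 10.4 percent under siAGO2, and 22.8 and 12.9 percent under dsLaminB. Both dsLaminB lists had it at a lower place than both mock lists, while siAGO2 lay on either side of mock. Ranked by fold enrichment, the dsLaminB places (20.2 and 7.9 percent) overlapped those of mock (11.1 and 5.0 percent). The peak spanned its only start and was 559 and 465 bp wide in mock cells, 471 and 406 bp under siAGO2, and 319 and 362 bp under dsLaminB. A core of 319 bp, from −99 to 219 bp around the start, was shared by all 6 libraries. Against its own list's median width, the peak ranged from 0.875 in siAGO2 replicate 2 to 1.30 in siAGO2 replicate 1, with mock (1.04 and 0.967) and dsLaminB (1.06 and 1.03) in between.

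per encodes the repressor that acts with TIM (FBgn0003068, chrX:2685580-2692780, plus strand). A peak was found at its only start in 2 of 6 libraries, 164 bp wide in mock replicate 1 and 159 bp wide in siAGO2 replicate 2. Both were near the narrowest width in the lists, 147 bp, and stood at 86.7 and 79.9 percent of their lists. They covered nearly the same place, from 88 bp before to 75 bp after the start and from 89 bp before to 69 bp after it. The 2 libraries belong to different treatments, and their replicate partners had no peak.

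tim, which encodes the partner of PER that light removes, had no peak at any of its 3 starts in any library (FBgn0014396, chr2L:3493986-3508119, minus strand). The peak nearest its first start lay 5.87, 6.33 and 6.10 kb away in mock replicate 1, mock replicate 2 and siAGO2 replicate 2, at the starts of LeuRS and CG17593. In the other 3 libraries it lay 29.4 kb away, at Thor. A peak list records only what passed the threshold, so Pol II at tim was not detected at these depths.

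The activators also differed from each other. Clk, whose product pairs with CYC, had no peak at either of its 2 starts or in its body (FBgn0023076, chr3L:7763233-7775603, minus strand). The nearest peak lay 28.5 to 34.0 kb from its first start. cyc, the partner of Clk, had a peak at its only start in 5 of 6 libraries (FBgn0023094, chr3L:19813770-19815938, minus strand). It was 401 and 437 bp wide in mock cells, 276 and 341 bp under siAGO2 and 158 bp in dsLaminB replicate 2. Its place was 52.0 and 57.6 percent in mock cells, 86.2 and 64.5 percent under siAGO2 and 92.7 percent in dsLaminB replicate 2. In bp the cyc peak was thus narrower, and by place lower, in every knockdown library that had it than in either mock library, and dsLaminB replicate 1 had none. Against the list's median width it was 0.743 and 0.909 in mock cells, 0.765 and 0.735 under siAGO2 and 0.45 in dsLaminB replicate 2, so siAGO2 overlapped mock on that scale.

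Pdp1, which encodes a basic leucine zipper activator of Clk, was the longest clock gene and had the most bases under peaks in every library (FBgn0016694, chr3L:7811458-7867369, minus strand, 55912 bp). It has 4 starts and 13 transcripts. The starts differed in how many libraries had a peak, with 2 at the first, 4 at the second, 0 at the third and 6 at the fourth. The first start had a peak in mock alone, 181 and 229 bp wide and at 81.4 and 77.7 percent of the lists. Every knockdown list was shorter than either mock list, and the share of all starts with this pattern was not counted. The pattern is therefore not read as particular to Pdp1. The second start, 11821 bp downstream of the first, begins 7 of the transcripts and had the widest start peak of the 9 genes in the mock and siAGO2 libraries.

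At the second start of Pdp1 the peak was 1396 and 1230 bp wide in mock cells and 1168 and 1173 bp under siAGO2. These widths were 2.59 and 2.56 times the list's median in mock cells and 3.24 and 2.53 times under siAGO2, so on that scale the treatments overlapped. In mock replicate 1 it ran from −150 to 1245 bp around the start. In dsLaminB no peak came within 500 bp of that start. The dsLaminB lists held instead a peak of 198 bp, 640 to 837 bp downstream, in replicate 1, and a peak of 394 bp, 593 to 986 bp downstream, in replicate 2. Both lay inside the stretch covered in the mock and siAGO2 libraries, and inside the longest of the first exons that begin there (2366 bp). The place of the peak was 24.2 and 35.1 percent in mock cells, 35.6 and 30.5 percent under siAGO2, and 33.1 and 20.2 percent under dsLaminB. These places overlapped between treatments, and they compare a peak with its own list only.

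A further peak lay wholly in the intron between the first start and the second, with no annotated start of any gene within 500 bp. In mock replicate 1 it ran from 1212 to 3160 bp downstream of the first start. It was 1949 and 1284 bp wide in mock cells, 469 and 1315 bp under siAGO2 and 163 bp in dsLaminB replicate 2, and it was missing in dsLaminB replicate 1. Its place was 51.5 and 53.3 percent in mock cells, 60.7 and 63.5 percent under siAGO2 and 63.2 percent in dsLaminB replicate 2. The intronic peak was therefore lower in its list in each knockdown library that had it than in either mock library. The share of intronic peaks with this pattern was not counted. By the most significant peak of a gene, 41.6% of genes stood lower in both siAGO2 than in both mock lists. For dsLaminB the share was 69.2%, so the pattern is not read as particular to this peak. The fourth start, 39351 bp downstream of the first, had narrow peaks of 207 and 201 bp in mock cells, 169 and 232 bp under siAGO2, and 152 and 226 bp under dsLaminB. Their widths overlapped between treatments, and a core of 109 bp, from 74 bp before to 34 bp after the start, was shared by all 6. The third start had no peak, with the nearest 4.94 to 4.98 kb away.

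**Figure D3:**
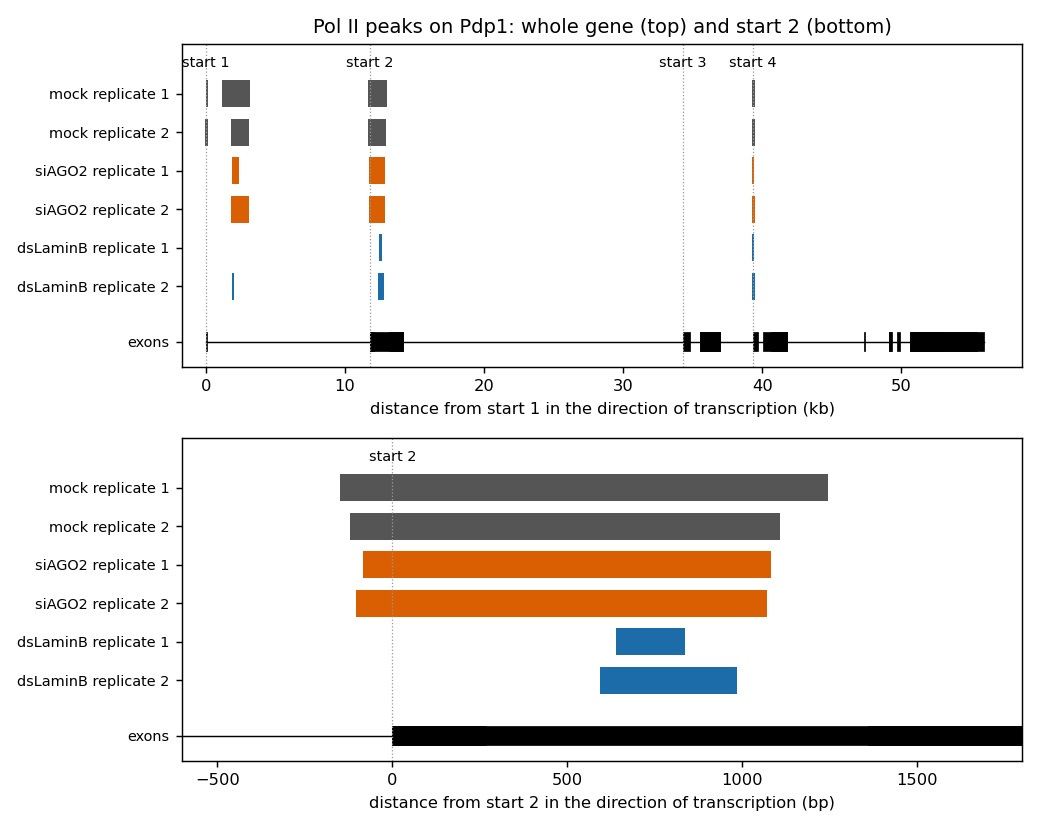
Pol II peaks (bars) on Pdp1 in the 6 libraries (rows, by treatment). The whole gene is plotted against the distance in kb from the first annotated start. The enlarged panel gives the distance in bp from the second start. The bar at the second start spans 1168 to 1396 bp in the mock and siAGO2 libraries. The dsLaminB libraries have no bar within 500 bp of that start. Their bars of 198 bp (replicate 1) and 394 bp (replicate 2) begin 640 and 593 bp downstream of it. The intronic bar just downstream of the first start is missing in dsLaminB replicate 1.

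The 2 regulators of clock proteins differed as well. dco encodes the casein kinase 1 known as Doubletime, which phosphorylates PER (FBgn0002413, chr3R:31054085-31061210, minus strand). Its 2 starts lie 437 bp apart and a single peak was counted at both, so they are not separate observations. That peak was 692 and 449 bp wide in mock cells, 292 and 401 bp under siAGO2 and 261 bp in dsLaminB replicate 2, and was missing in dsLaminB replicate 1. Against the list's median it was 1.28 and 0.933 in mock cells, 0.809 and 0.864 under siAGO2 and 0.744 in dsLaminB replicate 2, again below both mock libraries. The share of all genes below both mock libraries on that scale was not counted, so this is not read as particular to dco. Its place was 41.0 and 40.4 percent in mock cells, 66.2 and 34.5 percent under siAGO2 and 61.9 percent in dsLaminB replicate 2, so siAGO2 lay on both sides of mock. All 5 libraries shared 254 bp, from 77 to 330 bp downstream of the first start. A separate peak beyond the 3′ end of dco, at the start of Chchd3, was found in 5 libraries and was not counted to dco.

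cry encodes the blue light photoreceptor that binds TIM (FBgn0025680, chr3R:19212154-19215442, plus strand). It had no peak in any library, and the nearest, at the start of the overlapping gene vib, lay 14.1 to 14.2 kb from the cry start.

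Treatments were compared over libraries, by an exact permutation test (two-sided) of 2 libraries against 2, which cannot give a p below 0.333, and the spread between replicates is given as the SD pooled over both groups. The number of clock genes with a start peak was 6 and 5 in mock cells, 5 and 6 under siAGO2, and 3 and 5 under dsLaminB. Over all protein-coding genes the share was 49.7% and 47.5% in mock cells, 35.4% and 44.8% under siAGO2, and 20.2% and 33.6% under dsLaminB. The clock genes numbered the same on average under siAGO2 and mock (difference 0, pooled SD 0.707, exact permutation p = 1). They numbered 1.5 fewer on average under dsLaminB (difference −1.5, pooled SD 1.12, exact permutation p = 0.667), or −0.5 without dsLaminB replicate 1 and −2.5 without dsLaminB replicate 2. The number of clock starts with a peak was 9 and 8 of 18 in mock cells, 7 and 8 under siAGO2, and 3 and 6 under dsLaminB. These counts and their differences include the single dco peak at both dco starts, which are not separate observations. Over all starts of protein-coding genes the share was 46.3% and 44.0% in mock cells, 32.4% and 41.4% under siAGO2, and 18.3% and 30.7% under dsLaminB, so fewer starts had a peak under dsLaminB in the lists as a whole. The dsLaminB difference of −4 clock starts was larger than the spread between replicates (pooled SD 1.58, exact permutation p = 0.333, the smallest possible), and was −2.5 without dsLaminB replicate 1 and −1.5 with lists of equal length. It is not read as particular to the clock genes. The siAGO2 difference was −1 start (pooled SD 0.707, exact permutation p = 0.667), or −0.5 without mock replicate 1 and likewise without siAGO2 replicate 1.

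The number of bases of each gene under peaks was compared in the same way. It was lower in both siAGO2 than in both mock libraries for 4 of the 6 clock genes with any peak (vri, Pdp1, cyc and dco), where 47.4% of 6964 genes were, and higher for 0 of 6 (0.359%). It was lower in both dsLaminB libraries for 5 of 6 (also cwo), where 83.3% of 6961 genes were, and higher for 0 of 6 (0.158%). With 6 genes, neither count was read as a difference from the background. For vri the length was 368 ± 1.41 bp in mock cells, 323.5 ± 4.95 bp under siAGO2 and 211 ± 82.0 bp under dsLaminB (mean ± SD, n = 2 each). The difference from mock was −44.5 bp under siAGO2 (pooled SD 3.64, exact permutation p = 0.333) and −157 bp under dsLaminB (pooled SD 58.0, exact permutation p = 0.333). Both were larger than the spread between replicates, and the dsLaminB value was −99 bp without dsLaminB replicate 1.

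**Figure D4:**
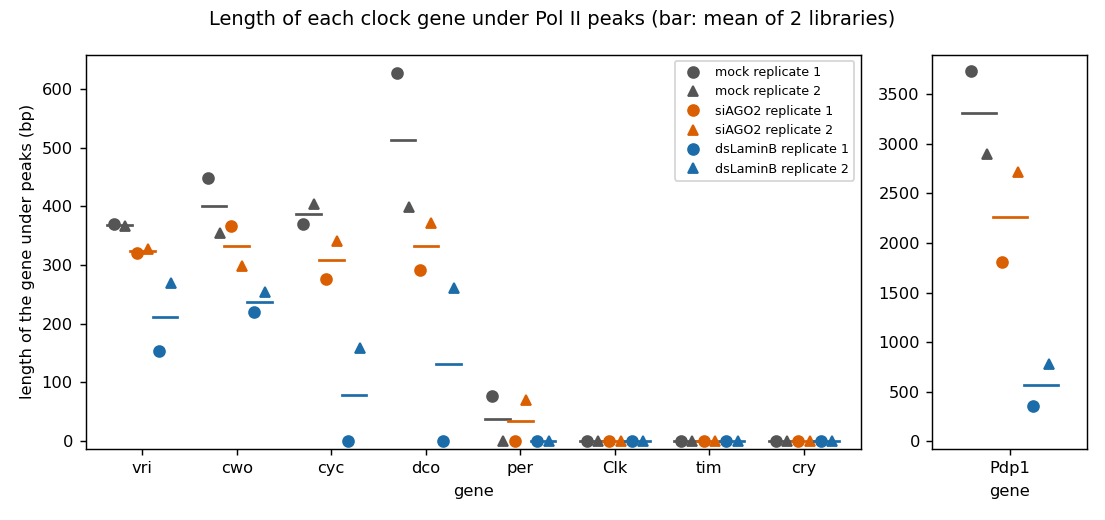
Length in bp under Pol II peaks for each of the 9 clock genes in each library (points, by treatment). Clk, tim and cry, which had no peak, lie at 0 bp. The vri points lie at 369 and 367 bp in mock cells and at 153 and 269 bp in dsLaminB replicates 1 and 2, and the Pdp1 points fall from 3733 bp in mock replicate 1 to 350 bp in dsLaminB replicate 1.

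Pdp1 had 3733 and 2901 bp under peaks in mock cells, 1806 and 2720 bp under siAGO2, and 350 and 783 bp under dsLaminB. The dsLaminB difference, −2750.5 bp, was larger than the spread between replicates (pooled SD 469, exact permutation p = 0.333), and was −2534 bp without dsLaminB replicate 1. That of siAGO2 was −1054 bp (pooled SD 618, exact permutation p = 0.333). It was −597 bp without siAGO2 replicate 1 and −638 bp without mock replicate 1. For Pdp1, cyc and dco no library of either knockdown overlapped mock. For cyc the difference was −78 bp under siAGO2 (pooled SD 36.9, exact permutation p = 0.333), or −45.5 bp without siAGO2 replicate 1. In dsLaminB it was −307.5 bp (pooled SD 80.9, exact permutation p = 0.333), or −228.5 bp without dsLaminB replicate 1. For dco it was −181.5 bp under siAGO2 (pooled SD 121, exact permutation p = 0.333), which was −67.5 bp without mock replicate 1 and −295.5 bp without mock replicate 2. In dsLaminB it was −382.5 bp (pooled SD 173, exact permutation p = 0.333), or −252 bp without dsLaminB replicate 1. For cwo the siAGO2 difference was −68 bp (pooled SD 58.0, exact permutation p = 0.667), and −21 bp without mock replicate 1, −115 bp without mock replicate 2 and −34 bp without siAGO2 replicate 2. The dsLaminB difference for cwo was −164 bp (pooled SD 50.0, exact permutation p = 0.333), or −147 bp without dsLaminB replicate 1. For per neither the siAGO2 difference (−3 bp, pooled SD 51.7) nor the dsLaminB difference (−38 bp, pooled SD 38) exceeded the spread between replicates (exact permutation p = 1 for both). The siAGO2 difference for per turned to 35 bp without mock replicate 1 and to 32 bp without siAGO2 replicate 1, and the dsLaminB difference was 0 without mock replicate 1 and −38 bp without dsLaminB replicate 1.

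Outside the core loop, 27 other genes of the pathway were counted from 3 lists. Of 12 kinases, phosphatases and degradation factors that act on clock proteins, 6 had a start peak in all 6 libraries (sgg, nmo, ctrip, tws, mts and wdb). Another 5 had one in some libraries (CkIIalpha, CkIIbeta, slmb, Cul3 and Bdbt), and 1 in none (jet, the F-box protein of the TIM light response). CkIIalpha, the catalytic subunit of casein kinase 2, had its start peak in both mock libraries and in no knockdown library. Every knockdown list was shorter than either mock list, and the share of all genes with this pattern was not counted. The pattern is therefore not read as particular to CkIIalpha. Of 7 cofactors, 6 had a peak in every library (nej, kay, Eip75B, Atx2, tyf and lark) and 1 in some (Usp8, in 4). Of 8 genes of neural output, 1 had a peak in every library (wake) and 7 had none (Pdf, Pdfr, to, Dh31, Dh44, qvr and na). Over the 27, 13 had a start peak in all 6 libraries, 6 in some and 8 in none, beside 3, 3 and 3 of the 9 core genes and the 19.7% and 49.2% of all protein-coding genes with a peak in all 6 and in none.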

How the data were processed

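Pol II chromatin immunoprecipitation was measured in 6 libraries, with 2 for each of mock, siAGO2 and dsLaminB, grouped by sample title. Per the submitters' processing notes, reads were trimmed (cutadapt 1.10), aligned to dm6 (Bowtie2) and cleared of duplicates (Picard 2.11.0), and peaks were called by MACS2 2.1.1.20160309. The study's methods state broad mode with each replicate called separately, and the series lists an input for each library. The deposited lists hold a score, a fold enrichment (a ratio over input), −log10 p and −log10 q per peak as the authors' caller wrote them. The score and the p column were not used, and the lowest −log10 q was 1.00. The 6 inputs were not analysed here.

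Peaks were compared with Ensembl release 115 gene models by position, with a minimum overlap of 1 bp and starts of a gene joined within 300 bp. Peaks were ranked by −log10 q within a list. Scripts ran in Python 3.11.15 with numpy 2.4.6, pandas 2.3.3 and scipy 1.17.1. The search for peaks near starts was tested on simulated peaks, and the other steps were not tested in that way. All 9 members were named, as were the 2 knockdown targets and the 3 genes most like vri in place. Of the genes whose start lay at a peak beside or nearest to a member, only some were named. Members of the pathway lists were named after their counts were seen. The members and lists were chosen with earlier results of these data known. Alternatives changed the start window, the q threshold, list length, overlap, joining of peaks or starts, ranking, replicates and pairing. With 2 libraries a group, a p-value only sets the difference against exchanges of the labels of these libraries. It cannot fall below 0.333, however small the spread between replicates, and that spread may be technical. Nothing in the lists gives depth, so no counting interval was possible.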

Additional observations from a re-analysis of the deposited data

How the results depend on the processing

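Of 130 alternative values, 83 kept their direction within 1.5 times the reported value (for places in a list, within 1 SD), 34 moved further, 8 fell to 0 and 5 reversed. The 83 include alternatives that could not change the difference. These are the replicate block, which changes only the p, and the counting of each distinct start, as no clock starts had been joined. They also include siAGO2 differences in clock genes that were 0 and stayed 0. Requiring the peak to cover the start took the difference from mock in clock genes to −1.5 (siAGO2, 0 as reported) and −3 (dsLaminB, −1.5 as reported), and that in clock starts to −2.5 for siAGO2 (−1 as reported). A −log10 q of at least 5 took the difference in genes to −0.5 and −3 in that order. Lists of equal length took it to 0.5 and −0.5, and that in starts to 0 for siAGO2 and −1.5 for dsLaminB (−4 as reported). Requiring 50% of the peak inside the window took the siAGO2 difference in starts to −0.5. With single replicates left out, the difference in genes ranged from −0.5 to 0.5 (siAGO2) and −2.5 to −0.5 (dsLaminB), that in starts from −1.5 to −0.5 and −5.5 to −2.5, and the dsLaminB difference in vri length from −215 to −99 bp. Lists of equal length, cut to their 2531 strongest peaks, reversed the vri length differences, to 323.5 bp (siAGO2) and 211 bp (dsLaminB), because the vri peak ranks 3061 and 2631 in mock replicates 1 and 2 and is lost there. They also took the Pdp1 difference to 92 bp (siAGO2) and −941 bp (dsLaminB), both differences for cyc to 0, and the siAGO2 difference for dco to −327.5 bp. The siAGO2 difference in per length ranged from −41 to 35 bp with single replicates left out. With no depth given, a missing peak is one below the caller's threshold.

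The replicate numbers were not shown to pair the libraries. Over 7033 genes, the deviations of same-numbered libraries from their group means correlated at −0.0692 between mock and siAGO2, −0.0954 between mock and dsLaminB and 0.202 between siAGO2 and dsLaminB. With the replicate block the differences were those reported, −44.5 bp and −157 bp for vri, and the smallest possible p was 0.5.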
